A study of Mus musculus with 2 samples.

Results

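The Mediator complex is built from the products of 33 mouse protein-coding genes, counting the paralogs that can take each other's place. All 33 were examined here for binding of the coactivator EP300 in fetal liver. The genes were chosen by name, as those called Med with a number (with or without the letter l) together with Cdk8, Cdk19 and Ccnc, out of 21728 protein-coding genes on the 19 autosomes and X. They were divided into 11 genes of the head, 10 of the middle, 5 of the tail and 7 of the kinase module. DNA bound by EP300 had been recovered with an antibody and sequenced (ChIP-seq). The tissue was liver of mouse embryos of strain B6NCrl at 14.5 days, with both sexes pooled and the organs of several dissections ground and combined. The 2 libraries form 1 group with no other age, genotype or treatment, and the labels give both the same biosample, so the spread between them may be technical. Read totals are not in the files, so the depth of the libraries is unknown.

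Mediator carries signals from transcription factors bound at enhancers to RNA polymerase II at the promoter. The head and middle contact the polymerase, the tail takes up many activators, MED14 runs through the core as a scaffold, and the kinase module binds reversibly and blocks the polymerase contact when it is attached. EP300 is a histone acetyltransferase found at the same enhancers. In red cell precursors, which fill the fetal liver, MED1 is known as a partner of the transcription factor GATA1. The placing of MED14, MED19 and MED27 to MED30 differs between published descriptions of the complex. Binding of EP300 beside a gene is not a measure of its expression, which was not measured.

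The sequences under some of the peaks are shown first, to set strong distal peaks beside promoter peaks with and without GATA motifs. Each line gives 151 bases centred on a summit, the base where a peak is highest, from the plus strand of mm10, 5′ to 3′. Capitals mark GATA motifs (the letters GATA with A or T before and A or G after, on either strand), the composite in which CTG is followed, after 7 or 8 bases, by the GATA motif AGATAA, and the short motifs named further on for ETS, YY1, NRF1, CREB, CACCC and AP-1 or NFE2. The first 6 are strong peaks away from any transcription start site (TSS), and the next is the strongest peak near any Mediator gene, next to the TSS of Cdk12. The last 5 are peaks at Mediator promoters. None of the windows touches an annotated exon.
Med12, intron (chrX:101287683-101287833): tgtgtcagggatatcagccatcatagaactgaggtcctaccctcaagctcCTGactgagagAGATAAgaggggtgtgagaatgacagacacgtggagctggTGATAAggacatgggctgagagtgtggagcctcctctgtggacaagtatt
Med20, intron (chr17:47617763-47617913): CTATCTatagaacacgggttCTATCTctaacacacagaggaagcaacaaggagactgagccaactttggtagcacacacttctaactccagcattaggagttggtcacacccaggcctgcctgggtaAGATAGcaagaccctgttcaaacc
Cdk8, intron (chr5:146245267-146245417): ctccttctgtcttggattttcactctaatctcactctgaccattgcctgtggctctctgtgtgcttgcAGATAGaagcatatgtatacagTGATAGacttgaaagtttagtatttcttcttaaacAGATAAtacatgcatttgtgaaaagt
Cdk8, past the 3′ end (chr5:146307879-146308029): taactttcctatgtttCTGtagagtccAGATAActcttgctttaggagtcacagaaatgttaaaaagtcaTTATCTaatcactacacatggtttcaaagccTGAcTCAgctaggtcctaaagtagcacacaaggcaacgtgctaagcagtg
Med8, intergenic (chr4:118424660-118424810): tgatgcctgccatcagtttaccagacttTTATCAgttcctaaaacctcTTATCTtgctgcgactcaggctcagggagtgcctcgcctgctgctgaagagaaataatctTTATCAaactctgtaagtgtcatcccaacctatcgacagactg
Cdk19, upstream (chr10:40328061-40328211): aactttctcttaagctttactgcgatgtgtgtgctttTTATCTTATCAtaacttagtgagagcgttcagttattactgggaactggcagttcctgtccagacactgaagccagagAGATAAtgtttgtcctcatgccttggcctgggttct
Med1, next to Cdk12 (chr11:98202631-98202781): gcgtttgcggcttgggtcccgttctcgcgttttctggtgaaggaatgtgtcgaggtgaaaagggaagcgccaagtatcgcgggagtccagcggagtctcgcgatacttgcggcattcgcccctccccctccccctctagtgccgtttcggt
Med6, promoter (chr12:81595202-81595352): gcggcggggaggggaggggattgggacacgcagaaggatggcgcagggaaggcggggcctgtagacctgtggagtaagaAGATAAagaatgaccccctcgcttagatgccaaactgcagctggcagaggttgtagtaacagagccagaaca
Ccnc, promoter (chr4:21727525-21727675): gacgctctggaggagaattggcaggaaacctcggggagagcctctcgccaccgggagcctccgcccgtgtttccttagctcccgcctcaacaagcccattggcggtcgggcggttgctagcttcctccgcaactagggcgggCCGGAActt
Med13, promoter (chr11:86358178-86358328): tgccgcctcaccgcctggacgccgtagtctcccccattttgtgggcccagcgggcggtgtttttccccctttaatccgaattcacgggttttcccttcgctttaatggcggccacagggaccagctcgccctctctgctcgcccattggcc
Med17, promoter (chr9:15280640-15280790): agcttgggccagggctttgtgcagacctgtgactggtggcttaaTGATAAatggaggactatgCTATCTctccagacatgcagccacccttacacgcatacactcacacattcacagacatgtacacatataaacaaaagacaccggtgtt
Cdk19, promoter (chr10:40350394-40350544): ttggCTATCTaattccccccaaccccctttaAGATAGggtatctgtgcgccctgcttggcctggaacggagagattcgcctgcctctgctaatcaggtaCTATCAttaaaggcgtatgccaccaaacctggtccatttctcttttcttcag
The 6 distal windows held between 2 and 3 GATA motifs each. The windows of Med12 and of the region past Cdk8 also held the composite. The 6 are a selection and not the strongest distal peaks. The distal peaks of 193.8 near Med20 and 148.8 near Med21, both stronger than the Cdk19 peak shown, held 1 GATA motif each within 100 bp of the summit. The window next to Cdk12 had no capital letter. Of the 5 promoter windows, that of Med6 held a single GATA motif, that of Ccnc an ETS motif and that of Med13 none of the capitalised motifs. Those of Med17 and Cdk19 held 2 and 3 GATA motifs, as many as the distal windows shown. Their summits lay 784 and 943 bp from the closest TSS of the gene, near the edge of the 1 kb taken as promoter.

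EP300 peaks were common at Mediator promoters, but few of these promoters had a peak above the median signal. The authors' optimal list, filtered by the irreproducible discovery rate (IDR) from both libraries, put a summit within 1 kb of a TSS of 15 of the 33 genes (45.5%), against 15.5% of all protein-coding genes. Above the median signal of the list, 38.5 on the authors' scale, the count fell to 2 of 33 (6.06%), against 7.19% of all genes. Promoter peaks were low in the whole list as well. Their median signal was 31.5 over all promoter peaks and 29.5 over those at Mediator promoters. Within 20 kb of a TSS, 23 genes had a peak (69.7%), against 38.6% of all genes. With peaks above the median signal 14 did (42.4%, all genes 25.0%), and with distal peaks, over 1 kb from any annotated TSS, 13 did (39.4%, all genes 26.7%). The Mediator genes were chosen by name, though with earlier results of these data known. No test was made of the family as a set, and the counts stand beside the background as a description.

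**Figure D1:**
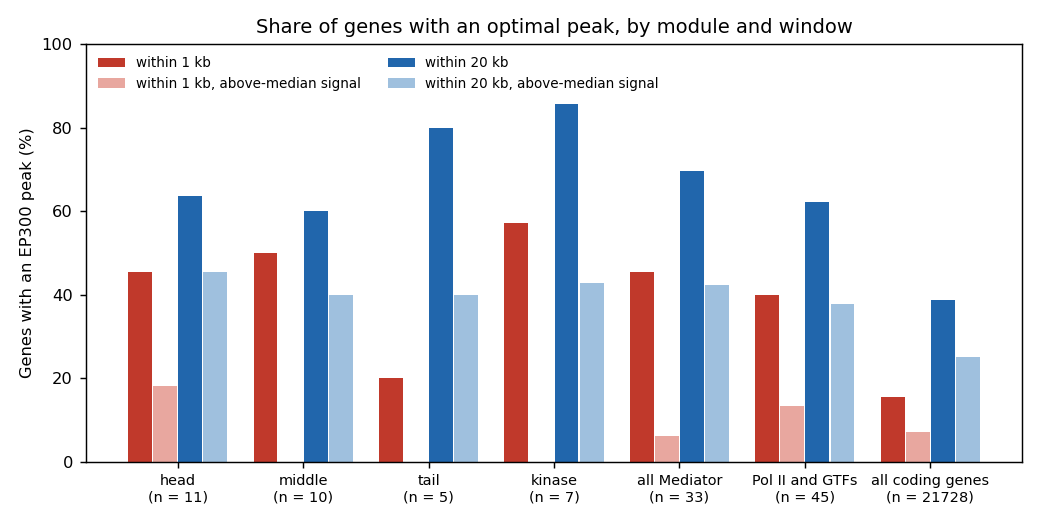
Share of genes with an optimal EP300 peak (vertical axis, percent) in each Mediator module, in all 33 Mediator genes, in 45 genes of RNA polymerase II and the general transcription factors, and in all 21728 protein-coding genes. Dark bars count any optimal peak within 1 kb or 20 kb of a TSS and pale bars only peaks above the median signal; the pale 1 kb bar is absent in the middle, tail and kinase modules.

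The modules are small, and their counts differ by a few genes. A promoter peak was found at 5 of 11 head genes, 5 of 10 middle genes, 1 of 5 tail genes and 4 of 7 kinase genes. Within 20 kb the counts were 7 of 11, 6 of 10, 4 of 5 and 6 of 7. With Med14 and Med27 to Med30 placed in the tail and Med19 in the head, the 20 kb counts were 7 of 8 head genes, 5 of 8 middle genes and 5 of 10 tail genes. The 2 genes with a promoter peak above the median signal, Med22 and Med6, were both of the head.

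In all, 59 optimal peaks lay within 20 kb of a Mediator TSS, and none was near 2 members. Of these, 20 were at a promoter of the Mediator gene itself, 14 at the promoter of another gene only and 25 were distal, with 13 in introns, 7 between genes and 5 in exons. For 35 of the 59 the nearest coding TSS was that of the Mediator gene, and the rest lay closer to a TSS of a neighbour. A like share for all coding genes is not given. A stronger peak lay within 500 bp of 6 of the 59, at 5 genes, so that 1 bound region may be listed more than once there. In the whole list, 1071 of 17043 peaks had a stronger one that close. The 6 are few, and their count is a description only.

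**Figure D2:**
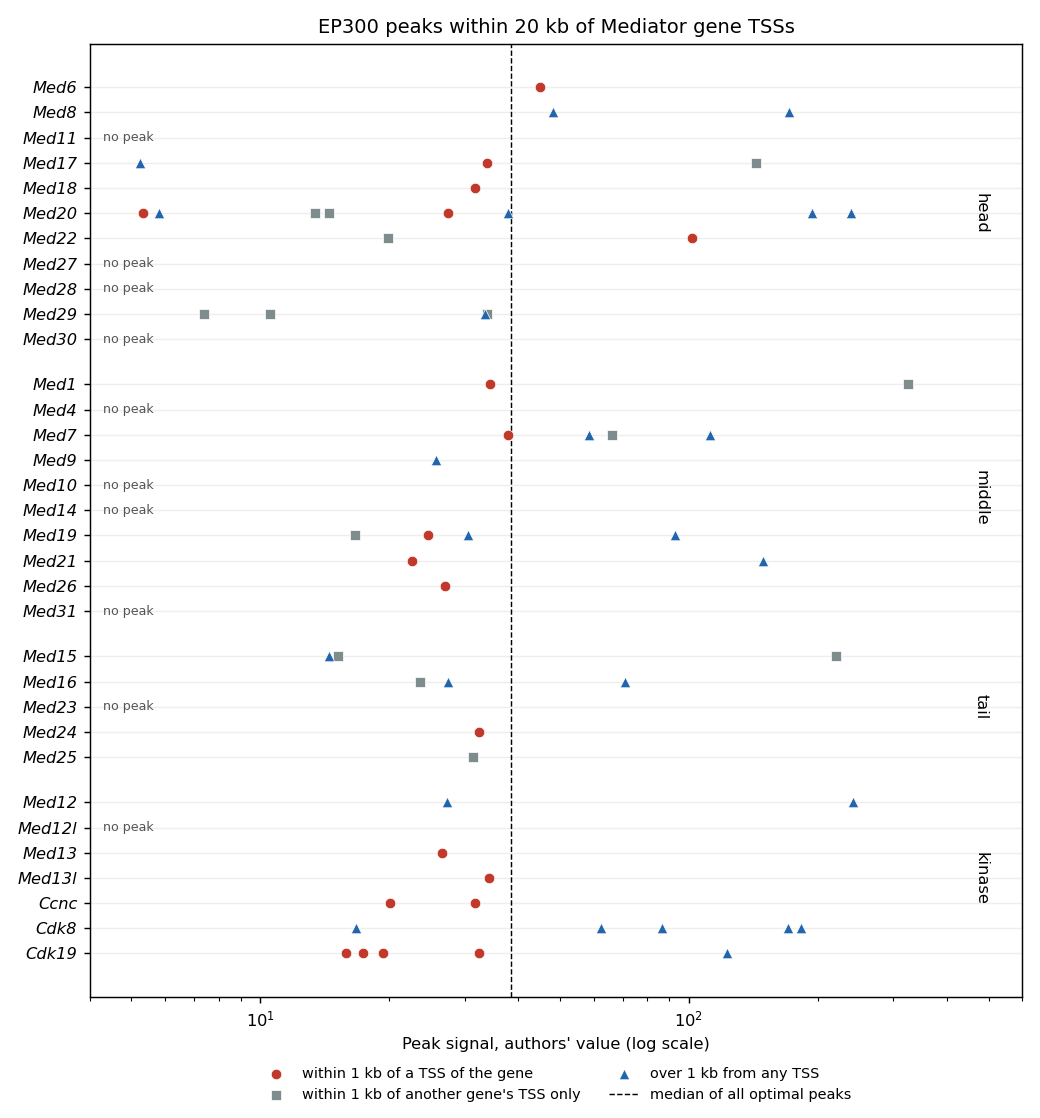
Signal of each optimal EP300 peak within 20 kb of a Mediator TSS (horizontal axis, authors' value, log scale), by gene and module. Red circles are peaks at the gene's own promoter, grey squares peaks at another gene's promoter and blue triangles distal peaks; the dashed line is the median of the list, 38.5, and 10 genes have no peak.

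Among the head genes, which form the part of the core nearest to the polymerase's initiation site, Med20 had the most peaks of the family, 8 within 20 kb. Its strongest, on chromosome 17 from 47617713 to 47617987, lay in an intron 6256 bp into the gene and had a signal of 238.9. It ranked 910 in replicate 1, with a signal of 116.7 there, and 813 in replicate 2, with 127.7. The 2 libraries thus placed it at a similar height, each on its own scale. The second, of 193.8, lay in an intron of the neighbouring cyclin gene Ccnd3, 13253 bp upstream of Med20, and ranked 1377 and 1187. Of the other 6, 2 were at promoters of Ccnd3 (14.4 and 13.4), 1 in an exon of Bysl (5.79), 1 in the overlapping gene Gm20517 (37.8) and 2 at the promoter that Med20 shares with Gm20517 and Bysl (27.3 and 5.32). The nearest coding TSS to the peak of 37.8 was that of Usp49, 1410 bp away.

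Med8 had no promoter peak. Its strongest distal peak, 171.1 on chromosome 4 from 118424621 to 118424817, lay past the 3′ end of the gene, 15398 bp from its start, and closer to the TSS of the fatty acid elongase gene Elovl1 (3358 bp). It ranked 1871 in replicate 1 and 1637 in replicate 2. Med17, which encodes the central subunit of the head, had a peak of 33.8 at its promoter, 784 bp upstream, and a stronger one of 143.2 within 142 bp of a TSS of the gene 4931406C07Rik, 9495 bp away. The promoter peak rested mainly on replicate 1, where it ranked 7153, against 131527 in replicate 2.

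Med22 had the strongest promoter peak of the family, with a signal of 101.5 on chromosome 2 from 26910604 to 26910943. Its summit was 97 bp from the Med22 TSS but 10 bp from that of Rpl7a, a ribosomal protein gene on the opposite strand, so the peak cannot be given to either gene. It ranked 3317 in replicate 1 and 3622 in replicate 2. Med6 came second, with a peak of 44.9 on chromosome 12 from 81595107 to 81595446, 269 bp upstream of its TSS. It ranked 5603 in replicate 2 but had no replicate 1 summit within 100 bp; the best replicate 1 summit within 1 kb of a Med6 TSS ranked 5818. Med18 showed the same pattern, with a promoter peak of 31.7 that ranked 7004 in replicate 2. Its best replicate 1 summit within 1 kb ranked 12618. Med29 had 4 peaks, none at its own promoter and none above 33.7. Med11, Med27, Med28 and Med30 had none within 20 kb.

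The middle module passes contacts from the tail to the head, and its MED1 subunit binds nuclear receptors and GATA1. The strongest peak within 20 kb of any Mediator gene was near Med1, with a signal of 324.3 on chromosome 11 from 98202546 to 98202821. It ranked 330 in replicate 1 and 391 in replicate 2. This peak lay 9413 bp upstream of Med1 and 353 bp from the TSS of Cdk12, the gene of a kinase of elongating RNA polymerase II, whose transcription runs the other way. At the promoter of Med1 itself, 45 bp from the TSS, the peak had a signal of 34.4 and ranked 8625 in replicate 1. No replicate 2 summit lay within 100 bp of it. The best replicate 2 summit within 1 kb of a Med1 TSS ranked 10741.

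Med7, Med19 and Med21 had stronger peaks away from their promoters than at them. Med7 had 4 peaks, led by one of 112.1 in an exon of the gene, 5057 bp from its start, which ranked 3638 in replicate 1 and 2476 in replicate 2. The others were 66.0 at the promoter of Havcr2, 58.4 upstream of the gene and 37.8 within 320 bp of an internal TSS. Med19 had a peak of 93.0 in an intron, which ranked 3571 and 3792, and one of 24.5 at its promoter, 231 bp upstream and just inside Tmx2, which starts 53 bp from the summit on the opposite strand. The 2 remaining Med19 peaks were 30.6 in an exon of Zdhhc5 and 16.7 at the promoter of Selenoh. Med21 had a peak of 148.8 in an intron of its divergent neighbour Tm7sf3, 12325 bp upstream, and one of 22.5 at the promoter. The promoter peak ranked 12845 in replicate 1 and had no replicate 2 summit within 100 bp.

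Med26, whose product recruits elongation factors to the polymerase, had 1 peak, of 27.0, at 110 bp from its only TSS. It ranked 7113 in replicate 1 and had no replicate 2 summit within 100 bp. Med9 had 1 peak, of 25.7, in intergenic sequence 7346 bp upstream. Med4, Med10, Med31 and the scaffold gene Med14 had none within 20 kb.

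Of the tail genes, Med24 alone had an optimal promoter peak, with a signal of 32.3 and its summit 5 bp from the TSS. It ranked 11507 in replicate 1 and 9507 in replicate 2. Med15, the subunit gene best known for contacts with activators, had its strongest nearby peak at the promoter of Smpd4, a sphingomyelinase gene beyond its 3′ end. That peak, on chromosome 16 from 17638332 to 17638541, had a signal of 220.1 and ranked 1104 and 994, and its summit was 14598 bp from the closest Med15 TSS but 94434 bp from the start of the gene. Inside Med15 lay 2 weak peaks of 15.2 and 14.5. Med16 had 3 peaks, led by 71.1 in an exon of R3hdm4. Med25 had 1, of 31.4, at the promoter of Ptov1, and Med23 had none within 20 kb.

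The kinase module consists of a cyclin-dependent kinase, cyclin C and the subunits MED12 and MED13, and 3 of these 4 positions can be filled by either of a pair of paralogs. Cdk8 had 5 distal peaks and none at its promoter. The strongest, 182.6 on chromosome 5 from 146245240 to 146245474, lay in an intron 14112 bp from the gene's start and ranked 1471 and 1530 in replicates 1 and 2. The next, 170.0 on chromosome 5 from 146307847 to 146308076, lay past the 3′ end and ranked 1701 and 1690. Its summit was 11589 bp from the closest Cdk8 TSS but 76724 bp from the start of the gene. The other 3, of 86.7, 62.4 and 16.7, were intronic, and the weakest had no replicate 2 summit within 100 bp. Each of the 5 had Cdk8 as its nearest coding gene.

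Its paralog Cdk19 had 4 peaks within 1 kb of a TSS, of 32.4, 19.4, 17.3 and 15.8, and 1 distal peak of 122.9. The distal peak, on chromosome 10 from 40328072 to 40328174, was 11428 bp upstream of the gene and ranked 3391 in replicate 1 and 2300 in replicate 2. The promoter peaks of 19.4, 17.3 and 15.8 lay close to a TSS inside the annotated gene, within its antisense transcript Cdk19os. The peak of 32.4 lay apart from them, 943 bp from the closest Cdk19 TSS and 366 bp from a TSS of Cdk19os. The peak of 17.3 had no replicate 1 summit within 100 bp and that of 15.8 no replicate 2 summit. Of the 4 summits, 3 lay within 500 bp of each other.

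Med12, an X-linked gene, had a peak of 241.3 in an intron on chromosome X from 101287639 to 101287863, 13728 bp from its start and 1734 bp from an internal TSS. It ranked 946 in replicate 1 and 833 in replicate 2. A second peak of 27.3 lay in an exon, and the promoter had none. Its paralog Med12l had no peak within 20 kb, and the nearest summit was 48431 bp away.

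Med13 and Med13l each had a single, weak promoter peak. That of Med13 had a signal of 26.6, lay 651 bp upstream of the TSS and ranked 10028 and 14344. That of Med13l had a signal of 34.1, lay 21 bp from a TSS and ranked 17365 in replicate 1 and 7603 in replicate 2. Ccnc, the cyclin C gene, had 2 peaks, of 31.6 and 20.1, on either side of its TSS. The stronger lacked a replicate 2 summit within 100 bp. The weaker ranked 15820 and 15805.

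Across the family, the median signal was lower at own promoters than at distal peaks and lowest at the promoters of other genes. The 20 own promoter signals ran from 5.32 to 101.5 with a median of 29.5, and all but 2 were below the median of the list. All 4473 promoter peaks of the optimal list had a median of 31.5, and 40.1% of them were above the median of the list. Peak by peak, own promoter peaks were thus above that median less often than promoter peaks in general. The 25 distal peaks near Mediator genes ran from 5.23 to 241.3 with a median of 62.4, against 42.2 for all 12570 distal peaks. The 14 peaks at other genes' promoters had a median of 21.7 and included the 324.3 at Cdk12. For each gene with a peak, the strongest one within 20 kb was at its own promoter in 8 cases, at another gene's promoter in 5 and distal in 10. The same split is not given for all coding genes, so it is a description only. The strongest signals ran from 25.7 to 324.3 with a median of 93.0, against a median of 56.8 over all coding genes with a peak. For promoter peaks alone the median of the strongest was 32.3, against 36.0. A signal above 100 was reached near 11 of the 33 Mediator genes and near 12.2% of all coding genes.

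**Figure D3:**
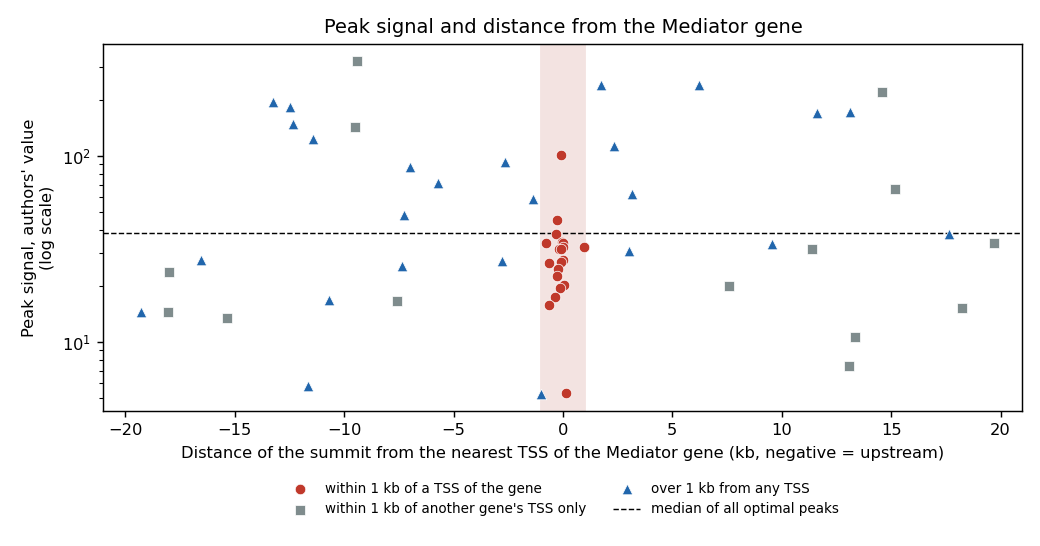
Signal of the 59 peaks (vertical axis, authors' value, log scale) against the distance of the summit from the nearest TSS of the Mediator gene (horizontal axis, kb, negative upstream). The 20 peaks in the shaded 1 kb on either side of the TSS reach 101.5, and the 4 highest points, from 220.1 to 324.3, all lie outside it.

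The libraries ranked the strong Mediator peaks alike and the promoter peaks less so. Each library's own list holds 300000 peaks, most of them weak. A summit of both libraries lay within 100 bp of 42 of the 59 peaks (71.2%), of 1 library for 14 and of neither for 3. The 3 were the peaks of 14.4 and 5.79 near Med20 and of 5.23 near Med17. Both libraries supported 22 of the 25 distal peaks (88.0%, all distal peaks 88.4%). They supported 11 of the 20 own promoter peaks (55.0%), against 72.5% of all promoter peaks. With the stricter demand that both summits rank within the first 17055, the length of the optimal list, 19 distal and 7 own promoter peaks remained. The 19 made up 76.0% of the distal Mediator peaks, against 70.1% of all distal peaks. The 7 made up 35.0% of the own promoter peaks, against 53.6% of all promoter peaks. When summits were allowed anywhere within 1 kb of a TSS, 11 of the 15 genes with an optimal promoter peak had one among the first 17055 of each library. No like share is given for all coding genes with an optimal promoter peak.

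**Figure D4:**
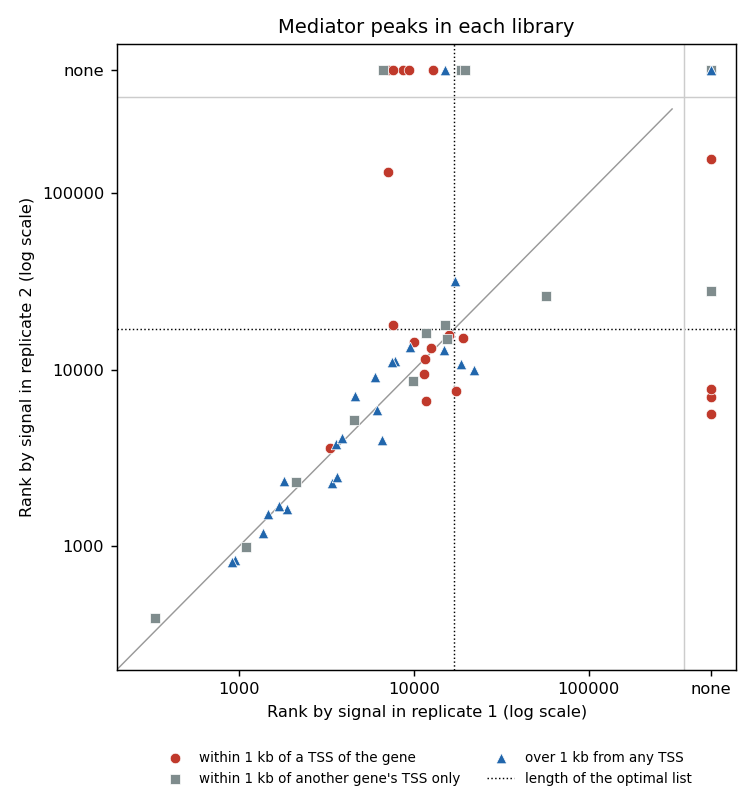
Rank by signal of each of the 59 Mediator peaks in replicate 1 (horizontal axis) and replicate 2 (vertical axis), both on log scales, with peaks that have no summit within 100 bp in a library placed at "none". The strongest peaks follow the diagonal, dotted lines mark rank 17055, and 9 of the 20 red own promoter points lie at a "none" edge.

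GATA motifs set the distal peaks apart from the promoter peaks, here as in the whole list. Within 100 bp of the summit, 21 of 25 distal Mediator peaks (84.0%) held a GATA motif on either strand, against 86.3% of all distal peaks. Of own promoter peaks 7 of 20 did (35.0%), against 42.1% of all promoter peaks. The composite with CTG, whose GATA site also counts as a GATA motif, was in 5 distal peaks (20%, all distal peaks 13.6%) and in no own promoter peak (all promoter peaks 5.19%). Of the 13 Mediator peaks above a signal of 100, 10 held a GATA motif, against 92.6% of all such peaks. The 3 without were the peaks at Cdk12, in the Med7 exon and at the promoter of Med22 and Rpl7a.

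The promoter peaks held other letters. CCAAT, the NFY motif, was in 9 of the 20 own promoter peaks (45.0%, all promoter peaks 25.3%), though in 3 when only 50 bp on either side were searched (all promoter peaks 14.1%). CCGCCC, the SP motif, was in 8 (40.0% against 31.5%) and CCGGAA, the ETS motif, in 4 (20% against 15.6%). AAGATGGC, of YY1, was in 2, at Med1 and Med24 (10% against 2.59%), and TGANTCA, of AP-1 and NFE2, in 2 (10% against 5.45%). TGTGGT, of RUNX, was in 1 (5.00% against 11.7%). GCATGCGC of NRF1, TGACGTCA of CREB and CCACACCC, the KLF1-type CACCC box, were in none (1.45%, 1.56% and 3.20% of all promoter peaks). These are matches of letters within a window and do not show that a factor was bound.

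**Figure D5:**
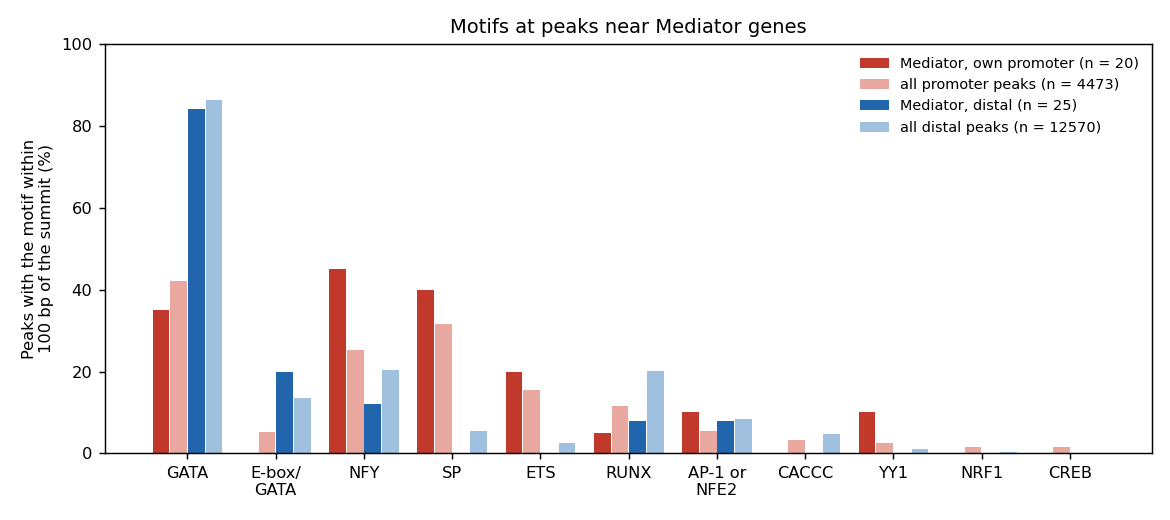
Share of peaks with each of 11 motifs within 100 bp of the summit (vertical axis, percent) for the 20 own promoter and 25 distal Mediator peaks and for all promoter and distal peaks of the optimal list. GATA is highest in the distal bars, at 84.0% near Mediator genes and 86.3% in all, while NFY, SP and ETS are higher in the red bars.

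Promoter sequence was also read around the annotated start rather than around summits. RefSeq promoters on GRCm38.p6, from 250 bases before to 50 after the start, were at hand for 28 of the 33 genes and for 16433 coding genes. The ratio of observed to expected CpG had a median of 0.890 in members with a promoter peak (range 0.633 to 1.17) and of 0.697 in members without (0.239 to 1.17). It was 0.817 in all coding genes with a promoter peak and 0.601 in all coding genes. The ranges of the members with and without a peak overlapped. The SP motif was in 11 of 13 promoters with a peak and 7 of 15 without, against 65.0% of all coding promoters with a peak and 48.3% of all coding promoters. The ETS motif was in 7 of 13 and 6 of 15, against 31.3% and 19.7%. The NFY motif was in 7 of 13 and 4 of 15, against 41.4% and 38.8%. A GATA motif was in 2 of 13 and 3 of 15, against 20.1% and 25.8%.

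The 10 genes without an optimal peak within 20 kb were Med11, Med27, Med28, Med30, Med4, Med10, Med14, Med31, Med23 and Med12l. Their nearest summits were 29006 to 387365 bp away, with a median of 104399 bp, the closest at Med23 and the farthest at Med30. The pooled list of 300000 peaks, before the IDR filter, shows how far some of them were from the threshold. Med4 had a pooled peak of 20.1 within 1 kb, at rank 14994, which was kept in the conservative list but not in the optimal list. Med16, with optimal peaks nearby but none at its promoter, had one of 34.7 at rank 9401, likewise kept only in the conservative list. Among the 18 genes without an optimal promoter peak, 11 had a pooled peak within 1 kb, with ranks from 9401 to 92297, and only those of Med16 and Med4 ranked within the first 17055. The like share of all coding genes without an optimal promoter peak is not given, so the 11 are a description only. The promoters of Med10, Med12l, Med25, Med27, Med28, Med30 and Med31 had no pooled peak at all.

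The same counts were made for the machinery that Mediator contacts. Of 45 genes for RNA polymerase II subunits, TBP, its associated factors and the factors TFIIA, B, E, F and H, 18 had a peak within 1 kb (40.0%) and 28 within 20 kb (62.2%). Above the median signal, 6 (13.3%) and 17 (37.8%) did. The median of the strongest signals was 31.7 within 1 kb and 47.5 within 20 kb. The strongest were at the promoter shared by Taf6 and Cnpy4 (276.6), in an intron of Clcn2 near Polr2h (233.1) and in an intron of Gtf2e2 (211.7). The 17 genes without a peak within 20 kb were Ccnh, Ercc2, Ercc3, Gtf2e1, Gtf2f2, Gtf2h3, Gtf2h4, Gtf2h5, Mnat1, Polr2d, Polr2f, Polr2i, Polr2k, Taf1, Taf11, Taf5 and Taf9b.

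The tissue label was checked with marker genes in the same 20 kb window. All 8 erythroid markers had a peak, with a median of the strongest signals of 243.3, and 5 of 8 hepatocyte markers did, with a median of 20.4. None of 4 neuronal markers, taken as genes outside the liver, had one. Of all coding genes, 38.6% had a peak in this window, with a median of the strongest signals of 56.8. The marker groups are small, and their counts are a description. The liver was not separated into cell types, so peaks near Mediator genes cannot be assigned to one of them.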

How the data were processed

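EP300 peaks of 2 libraries were used as deposited by the authors (narrowPeak, mm10). Per the file headers of the accompanying listings, filtered alignments and controls gave a list per library and a pooled list, and the optimal and conservative lists were drawn from those. Which aligner, caller and cut-off were used is not stated there. The signal deposited by the authors for a peak is a value of their caller, never negative, and was compared within a list only. The summit offset they deposited, a number of bases from the peak's start, gave each summit. Peak width was 340 bp in the median. A further peak near Med8 is counted but not described here.

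Summits were set on GRCm38.p6 sequence, which is mm10, and on all transcript starts of GENCODE vM21. Of 17055 optimal peaks, 17043 lay on the autosomes and X. Genes of the same name were joined. A peak matched a library when a summit lay within 100 bp, and ranks are by signal. Motifs were searched within 100 bp of the summit. The ratio of observed to expected CpG is the number of CG times the length over the product of the C and G counts.

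The members, gene lists and modules were chosen with earlier results of these data known, so counts are given beside all coding genes with no p-value. All Mediator genes are named, in full those with the 6 strongest peaks, the 4 strongest promoter peaks or the most peaks, the paralog pairs and those without a peak. Of the 45 context genes, the 3 with the strongest peaks and those without a peak are named. Alternatives were other peak lists, each library alone, other windows, other TSS choices, nearest-gene assignment and other modules. The window search was tested on planted peaks against a direct count. Python 3.11.15, numpy 2.4.6, matplotlib 3.10.9 and samtools 1.23.1 were used.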

Additional observations from a re-analysis of the deposited data

How the results depend on the processing

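The count of Mediator genes with a peak moved by over 1.5 times when weak or promoter peaks were dropped and by less under the other choices tried. It fell from 15 to 2 within 1 kb and from 23 to 14 within 20 kb with peaks above the median signal, and from 23 to 13 within 20 kb with distal peaks only, as fewer peaks were counted. The shares of all coding genes in these settings were 7.19%, 25.0% and 26.7%. Without replicate 1, 14 genes had a peak within 1 kb (all genes 17.1%) and 24 within 20 kb (39.8%); without replicate 2, 17 (17.8%) and 24 (40.5%) did, with 55 and 61 distinct peaks in place of 59. The other lists and TSS choices gave 13 to 17 genes within 1 kb (all genes 12.5% to 16.8%) and 21 to 24 within 20 kb (33.8% to 39.6%), and giving each peak to its nearest coding gene left 18 (27.2%). Windows of 0.5 and 2.5 kb held 13 (13.2%) and 16 (19.5%) genes, and those of 5 and 50 kb 17 (23.5%) and 27 (53.7%). Removing peaks within 500 bp of a stronger one, chosen after seeing the data, left 15 and 23 genes (15.4% and 38.6%) and 53 peaks. The same 2 genes, Med6 and Med22, had a promoter peak in all 6 lists, and 14 genes had a peak within 20 kb in all 6. One of the 6 is the optimal list cut at its median signal, and that cut by itself left 2 and 14 genes. Those counts therefore do not measure stability between lists. In the optimal list and the top of both libraries, 11 genes had a peak within 1 kb and 21 within 20 kb. No like shares of all coding genes are given. The tail count within 1 kb rested on 1 gene and was 2 in the conservative list, the pooled top and each library alone. With Med27 to Med30 and Med14 moved to the tail and Med19 to the head, the counts within 1 kb were 6 of 8 head genes, 4 of 8 middle genes and 1 of 10 tail genes. No paired analysis was possible because the 2 libraries form 1 group. Since depth is unknown, a gene without a peak is one at which none passed the authors' filter, not one shown to lack EP300.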

Other observations

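One of the peaks near Med29 lay over a transfer RNA gene. The peak of 33.7 whose summit was 429 bp from a TSS of Plekhg2 had that summit inside n-TIaat16, an isoleucine tRNA gene of the RefSeq annotation on chromosome 7 from 28372999 to 28373093, plus strand. It ranked 6690 in replicate 1 and had no replicate 2 summit within 100 bp. It was the only 1 of the 59 Mediator peaks with a summit in a RefSeq tRNA gene. In the whole optimal list 33 peaks (0.194%) had a summit in one of 403 such genes, with a median signal of 23.9. This was looked for after the data had been seen and is given as a count.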
